A study of Saccharomyces cerevisiae with 6 samples.

Results

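Messenger RNA of the proteasome was followed in the laboratory yeast S. cerevisiae BY4741 through 34 genes, chosen by systematic name from the 6572 features of its count tables. They are 14 genes of the core particle, 9 of the base, 9 of the lid, RPN10, which sits between base and lid, and RPN4, which encodes the transcription factor of the system. The 33 genes other than RPN4 are called the subunits here. The series holds 6 RNA sequencing libraries, 3 of BY4741 and 3 of S. boulardii Biocodex. All come from cell pellets taken at mid-exponential growth, after 6 h in ILM, a medium whose name the labels do not spell out. BY4741 is a haploid strain that lacks LEU2, URA3 and MET17 and part of HIS3, and its labels name no treatment besides the medium. Biocodex features carry identifiers of another kind, and 0 of its 5482 names occur among those of BY4741, so the proteasome genes were not compared between the strains.

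The proteasome degrades proteins that carry ubiquitin chains. Its core particle is a barrel in which rings of alpha subunits gate the entry and rings of beta subunits hold the proteolytic sites. The regulatory particle binds substrates through ubiquitin receptors, removes the ubiquitin in its lid and unfolds the substrate with the ATPase ring of its base. In yeast, Rpn4 activates the subunit genes through a promoter element named PACE and is itself degraded by the proteasome, which closes a feedback loop.

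Depth differed among the BY4741 libraries, with 18707708 reads in replicate 1, 5181546 in replicate 2 and 4581414 in replicate 3. Nothing in the labels says that they came from separate cultures, so the SDs measure the spread between these libraries, which may be technical. LEU2, URA3 and MET17 had 0 reads in each library, which allows up to 0.160, 0.579 and 0.655 CPM (reads scaled to the library total, for counting error only), and HIS3 had 925, 196 and 285 reads. Each of the 34 genes was well covered, with 299 to 8010 reads per gene and library. None overlapped another annotated coding gene, and none shared a 50-base stretch of coding sequence with another gene.

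The PACE letters GGTGGCAAA stood in the promoter windows of most subunit genes. The window ran from 250 bases before to 50 bases after the coding start in the RefSeq R64 assembly, and both strands were searched. An exact match was found in 27 of the 33 subunit genes, against 1.20% of 5897 promoters (71). PACE is the element through which Rpn4 is known to act on these genes, so this count is a description and no test. Of those 71 promoters, 38.0% were subunit genes, and 81.8% of subunit genes were among them. A site in a short gap between divergent genes can lie in the windows of both. The site of SCL1, 108 bases before its start in a gap of 297 bases to MPO1, is of this kind. Promoters that share a site in this way were not counted apart. The core had 12 of 14 matches, the base 8 of 9 and the lid 7 of 9. Each of the 27 genes had a single match. It read along the strand of the gene in 19 and on the other strand in 8, and its first base lay 84 to 183 bases before the coding start, with a median of 120.

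The sites below are shown because they are the feature these genes share. They are written 5′ to 3′ along the strand on which the motif reads, with the 9 motif letters in capitals and 10 flanking bases on each side, at R64 coordinates. The first set holds exact matches, from the highest and lowest core genes, the highest ATPase gene, the lowest base and lid genes, both catalytic genes with an exact match, and the deubiquitinase gene.
PUP3 (chrV:349511-349539, minus strand): tggcactgccGGTGGCAAAaaagtgcaaa
PRE1 (chrV:177683-177711, plus strand): aaatctttacGGTGGCAAAaaataaagaa
PRE3 (chrX:435035-435063, plus strand): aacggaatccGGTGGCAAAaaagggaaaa
PRE2 (chrXVI:732184-732212, plus strand): acagcaaaagGGTGGCAAAacgaagaata
RPT4 (chrXV:813802-813830, plus strand): ctttcccttcGGTGGCAAAttccactatt
RPN1 (chrVIII:164838-164866, minus strand): tgtgttttacGGTGGCAAAaggcgagcac
RPN11 (chrVI:153259-153287, plus strand): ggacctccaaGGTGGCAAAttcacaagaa
RPN7 (chrXVI:742290-742318, minus strand): atcctcaatgGGTGGCAAActtaacttat

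The 6 subunit genes without an exact match each held a match with 1 mismatch, of which there were only 2 kinds. Counted from 1 at the 5′ end of the motif, PRE5, PUP1 and RPN8 carried G1A, and RPN13, SEM1 and RPN10 carried A7G. The letters with G1A stood in 0.729% of all promoters (43 of 5897) and those with A7G in 0.458% (27 of 5897). Neither form occurred in a subunit gene that also had the exact motif. With any single mismatch allowed, 33 of 33 subunit genes matched, against 7.68% of all promoters, again as a description. The 6 sites lay 101 to 172 bases before the coding start, within the span of the exact sites.
PRE5 (chrXIII:901552-901580, plus strand): cctattatagAGTGGCAAAattaaaaatt
PUP1 (chrXV:631891-631919, minus strand): aacccggccgAGTGGCAAAataccaaaaa
RPN8 (chrXV:817085-817113, minus strand): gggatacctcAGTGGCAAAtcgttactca
RPN13 (chrXII:965656-965684, minus strand): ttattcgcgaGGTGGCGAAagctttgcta
SEM1 (chrIV:1202007-1202035, plus strand): tagtgctatgGGTGGCGAAcgtggtgggc
RPN10 (chrVIII:498968-498996, minus strand): tgtaaattccGGTGGCGAAaacccgcctg

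**Figure D1:**
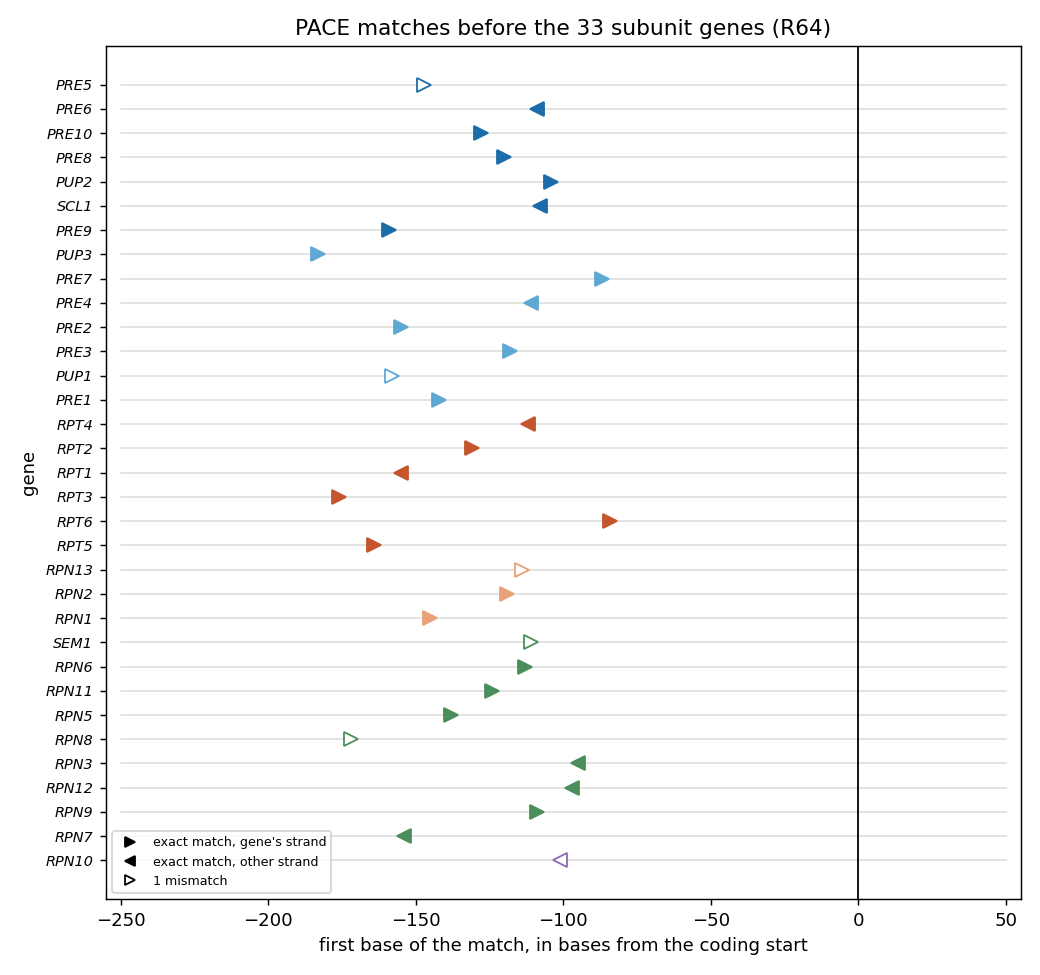
Position of the PACE match before each of the 33 subunit genes, in bases from the coding start (vertical line at 0), each gene on its own line and coloured by subcomplex. Filled triangles are the 27 exact matches, open triangles the 6 matches with 1 mismatch, and the triangle points along the strand of the motif. All lie between 84 and 183 bases before the start.

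Levels of the subunit genes with and without the exact motif overlapped. Levels are given as TPM, reads per kb of coding length, scaled to the same total in each library over the 5898 genes matched to the reference. Genes with the exact motif had a median of 198 TPM over 27 genes, and the median without it was 301 TPM over 6 genes. Their ranges, 67.3 to 477 TPM and 134 to 400.4 TPM, overlapped. The 6 include SEM1 and RPN13, with 270 and 471 coding bases, and TPM ran higher in shorter genes. Set against the median of the 500 genes nearest in length, the 6 ran from 0.99 (RPN13) to 2.54 (RPN10) on the log2 scale. The 27 ran from 0.29 (RPN12) to 2.49 (RPN2). The order of the medians is given for TPM only. The other 44 genes with the exact motif had a median of 50.1 TPM, and the median of all 5898 matched genes was 39.5 TPM. Divergent neighbours whose window reaches a subunit's own site were not set apart from these 44.

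The subunit genes as a whole stood high among the genes of the cell. Their median was 202, 217 and 169 TPM in replicates 1, 2 and 3, against a median over all matched genes of 37.0, 39.5 and 40.4 TPM. That placed the subunit median at percentiles 86.4, 86.7 and 83.2 of all genes. All 33 subunits lay above the median of all genes in each library, where 50% of all genes lie by definition. The lowest percentile of any of the 34 genes in any library was 62.1 and the highest 94.2. Together the 33 subunits took 0.801%, 0.841% and 0.711% of the reads, or 0.784% ± 0.0667 (SD, n = 3).

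**Figure D2:**
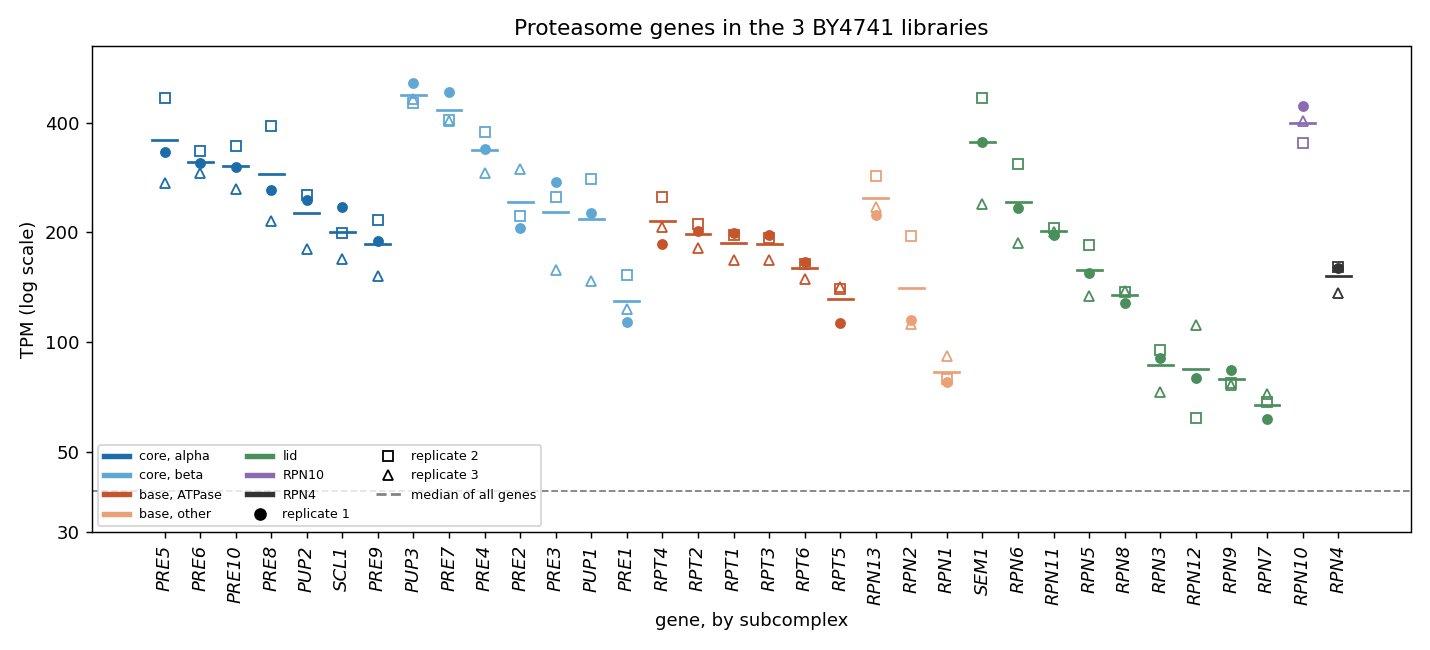
TPM of the 34 genes on a log axis in BY4741 replicates 1 (filled circles), 2 (open squares) and 3 (open triangles), with the mean of the 3 libraries as a bar and genes grouped and coloured by subcomplex. The dashed line is the mean over libraries of the median of all genes, and each gene lies above it in each library.

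Subunits of the same particle differed in mRNA level more than the libraries did. The means of the 33 genes spanned 7.10-fold, from RPN7 to PUP3, and their SD was 0.74 on the log2 scale. The median SD of a gene between libraries was 0.19 on the same scale. Part of the span in TPM went with coding length. Over the 33 genes, log2 length had a Pearson r of -0.58 with log2 TPM and 0.37 with log2 CPM, as a description. Of the 33 means, 26 lay within 2-fold of the median and 19 within 1.5-fold. The order of the genes was similar in each library, with a Spearman rho of 0.940, 0.892 and 0.888 across the 33 genes for the 3 pairs of libraries, as a description. Neighbours in that order could rarely be told apart, as 2 of 32 adjacent pairs had values that did not overlap between the libraries.

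In the core, beta subunit genes held both ends of the range. PUP3 (YER094C), which encodes a beta subunit without a proteolytic site, stood at 515, 454 and 464 TPM in replicates 1, 2 and 3, or 477 ± 32.7 TPM (SD, n = 3). It ranked 1 of 34, and PRE7, another such beta subunit gene, followed at 434 ± 46.4 TPM (SD, n = 3). Both were among the 5 highest subunits in each library. PRE1 (YER012W), a beta subunit gene as well, was the lowest of the core at 113, 153 and 123 TPM, or 129.6 ± 20.5 TPM (SD, n = 3). No library of PRE1 came near any of PUP3, and the means differed 3.71-fold.

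The catalytic beta subunit genes lay close to each other. PRE2 (YPR103W), whose product has the chymotrypsin-like site, stood at 206, 222 and 299 TPM, with replicate 3 the highest. PRE3 (YJL001W), of the caspase-like site, stood at 276, 251 and 158 TPM, with replicate 3 the lowest. PUP1 (YOR157C), of the trypsin-like site, stood at 226, 281 and 147 TPM and was also lowest in replicate 3. Their means were 243 ± 49.8 TPM, 228 ± 62 TPM and 218 ± 67.3 TPM (SD, n = 3 each), and the ranges of all 3 overlapped.

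The 7 alpha subunit genes spanned 1.90-fold. PRE5 (YMR314W) was the highest at 333, 467 and 273 TPM, or 358 ± 99 TPM (SD, n = 3), and PRE6 and PRE10 followed. PRE9 (YGR135W), the gene of the alpha subunit that yeast can live without, was the lowest at 189, 217 and 152 TPM, or 186 ± 32.4 TPM (SD, n = 3). Each library of PRE5 lay above each library of PRE9. The alpha genes had a median of 270.3 ± 59.8 TPM and the beta genes had 282 ± 7.95 TPM (SD, n = 3 each), with ranges that overlapped.

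The ATPase genes of the base were the most even group. RPT1 to RPT6, whose products form the ring that unfolds substrates, ran from 132 ± 16.1 TPM for RPT5 to 215 ± 33 TPM for RPT4 (SD, n = 3 each), a span of 1.63-fold. RPT4 stood at 186, 251 and 207 TPM and RPT5 at 113, 139.7 and 142 TPM, and the ranges did not overlap. The SD among the 6 genes was 0.20 to 0.32 on the log2 scale over the libraries, against 0.28 to 0.46 for the 7 alpha and 0.56 to 0.76 for the 7 beta genes.

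The other base genes were spread more widely and differ strongly in length. RPN13 (YLR421C), a ubiquitin receptor gene of 471 coding bases, was the highest of the base at 223, 287 and 235 TPM, or 248 ± 33.9 TPM (SD, n = 3). RPN1 (YHR027C), which encodes a scaffold that also receives ubiquitin and has 2982 coding bases, was the lowest at 77.6, 79 and 91.8 TPM, or 82.8 ± 7.85 TPM (SD, n = 3). This order turned over without the scaling for length, with RPN13 at 135 ± 14.8 CPM and RPN1 at 287 ± 27.7 CPM (SD, n = 3 each). Against the 500 genes nearest in length they stood at 0.99 and 1.87 on the log2 scale. By both measures RPN13 was the lowest of the base. RPN2 (YIL075C), the gene of the second scaffold, stood at 115, 196 and 112 TPM, and replicate 2 was far above the others. Its coefficient of variation, 33.8%, was the highest of the 33 subunits. RPN10 (YHR200W), the third ubiquitin receptor gene, stood at 445, 351 and 405 TPM, or 400.4 ± 46.9 TPM (SD, n = 3), and ranked 3 of 34.

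The lid held 4 of the 5 lowest subunits and the widest spread. RPN7 (YPR108W) stood at 61.6, 68.5 and 71.8 TPM, or 67.3 ± 5.21 TPM (SD, n = 3), and was the lowest of all subunits in replicates 1 and 3. RPN12 (YFR052W) stood at 79.7, 61.9 and 112 TPM, with replicate 2 the lowest of all. In TPM, RPN3, RPN7, RPN9, RPN12 and the base gene RPN1 were the 5 lowest subunits in each library. All 4 lid genes had means under the lowest core mean.

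In TPM, SEM1 and RPN6 were the highest of the lid. SEM1 (YDR363W-A), the shortest gene of the set with 270 coding bases, encodes a small acidic protein and stood at 355, 467 and 239 TPM, or 354 ± 114 TPM (SD, n = 3). RPN6, whose product clamps the lid to the core, stood at 242 ± 60.7 TPM (SD, n = 3). The place of SEM1 above RPN6 rests on the scaling for length. In reads not scaled for length SEM1 stood at 111 ± 33.9 CPM and RPN6 at 366 ± 84.8 CPM (SD, n = 3 each). Against the 500 genes nearest in length they stood at 1.01 and 2.37 on the log2 scale. RPN11 (YFR004W), the gene of the deubiquitinase that frees ubiquitin from substrates, stood at 196, 206 and 201 TPM. Its coefficient of variation of 2.46% was the lowest of the subunits, whose median was 13.6%.

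Per kb, the subcomplexes ranked core, base and lid in each library. The core median was 268, 307 and 239.5 TPM in replicates 1, 2 and 3, the base median 186, 196 and 168 TPM and the lid median 128, 137 and 134 TPM. The difference of core minus base was 0.53, 0.64 and 0.51 on the log2 scale, or 0.56 ± 0.07 (SD, n = 3; 1.47-fold). Core minus lid was 1.07, 1.16 and 0.83, or 1.02 ± 0.17 (SD, n = 3; 2.02-fold), and base minus lid was 0.54, 0.51 and 0.32, or 0.46 ± 0.12 (SD, n = 3; 1.37-fold). Each difference held in 3 of 3 libraries, and the exact two-sided sign-flip permutation p was 0.25 for each, the smallest that 3 libraries allow. Of the subunits, 11 of 14 core genes, 2 of 9 base genes and 2 of 9 lid genes had means above the subunit median of 201 TPM.

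The order of core and base was not fixed under other treatments of coding length, while the lid was lowest under each of the 3 treatments given here. Core genes have 597 to 867 coding bases, and their median is 762, against 1314 for the base and 1182 for the lid. In reads not scaled for length, core minus base was -0.33, -0.07 and -0.41 on the log2 scale, or -0.27 ± 0.18 (SD, n = 3), so that the base was higher in each library. Among all 5264 genes with at least 10 reads in each library, shorter genes had higher TPM, with a Pearson r of -0.47 between log2 length and log2 TPM, as a description across genes. Set against the 500 genes nearest in length, a measure added after the data were seen, core minus base was -0.26, 0.12 and -0.28 in replicates 1, 2 and 3, or -0.14 ± 0.23 (SD, n = 3). The core thus stayed above the base in replicate 2, and the mean lay within the spread between libraries. By the same measure core minus lid was 0.76 ± 0.10 and base minus lid 0.90 ± 0.13 (SD, n = 3 each). All 33 subunits had mean levels above the median of the genes of like length. RPN10 and RPN2 stood 2.54 and 2.49 above it on the log2 scale, the highest of the set, and RPN12 and PRE1 stood 0.29 and 0.37 above it, the lowest.

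**Figure D3:**
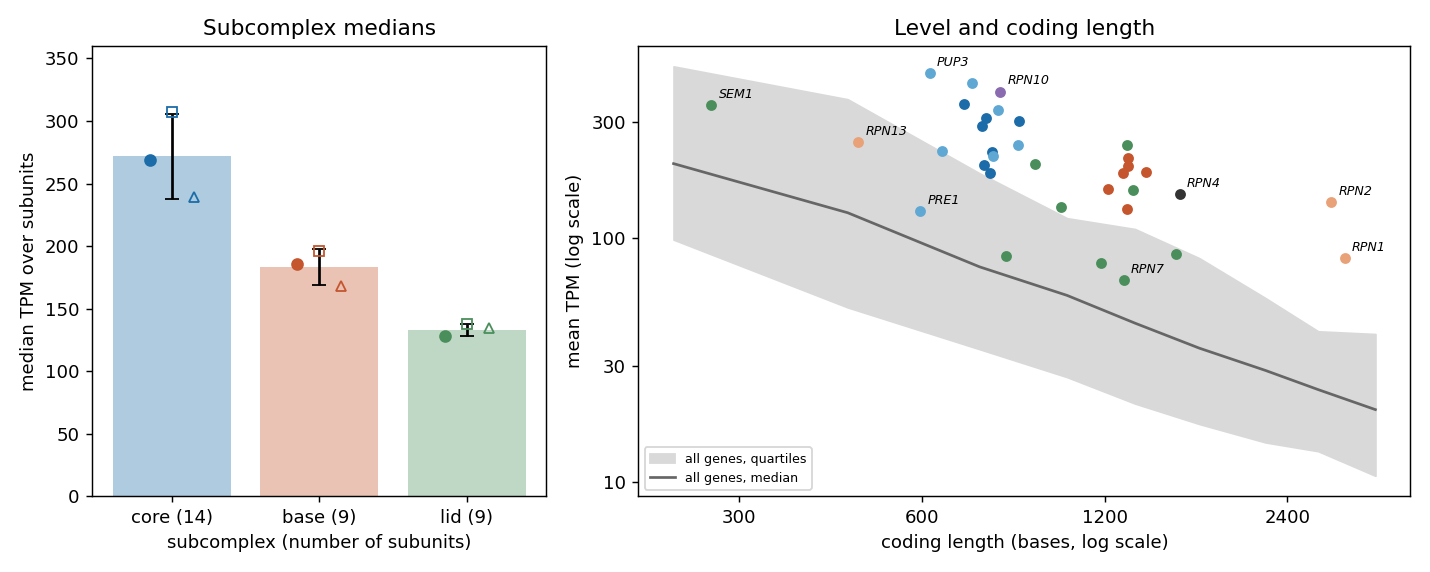
Left, the median TPM over the subunits of core, base and lid, with the mean of 3 libraries as a bar, its SD as an error bar, and replicates 1, 2 and 3 as filled circle, open square and open triangle. Right, mean TPM against coding length of the 34 genes (both axes log), coloured by subcomplex as in the plot of levels by gene, with the median (line) and quartiles (grey) of all genes in bins of length. The core genes lie at short lengths and RPN1 and RPN2 at the long end, all 34 above the line.

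The regulator gene RPN4 (YDL020C) was read at a level near that of its target genes. It stood at 159, 161 and 136 TPM in replicates 1, 2 and 3, or 152 ± 14 TPM (SD, n = 3), at percentiles 83.1, 82.4 and 79.5 of all genes. It ranked 25 of 34, with 24 subunits above and 9 below. Its log2 ratio to the subunit median was -0.34, -0.43 and -0.31, or -0.36 ± 0.06 (SD, n = 3; exact sign-flip permutation p = 0.25, the smallest possible). In reads not scaled for length the ratio was 0.27 ± 0.08, and against genes of like length 0.22 ± 0.14 (SD, n = 3 each), so its place above or below the subunits rests on the scaling.

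The promoter window of RPN4 held no PACE letters, exact or with 1 mismatch. It is shown because factors of drug resistance and stress, Pdr1, Pdr3, Yap1 and Hsf1, are known to act on this gene. The window covers only the near part of the gap of 954 bases between RPN4 and its upstream neighbour OSH2. The rest of that gap was not searched for any motif, so the absences given here hold for the window only. Within these bounds, the window held neither TCCGCGGA (Pdr1 and Pdr3), found in 0.203% of all promoters, nor TTACTAA (Yap1), found in 7.51%. It held the short heat shock letters GAANNTTC, found in 12% of promoters, once, at 16 bases before the start and in capitals here, on the minus strand of chrIV:416659-416958 in R64.
RPN4: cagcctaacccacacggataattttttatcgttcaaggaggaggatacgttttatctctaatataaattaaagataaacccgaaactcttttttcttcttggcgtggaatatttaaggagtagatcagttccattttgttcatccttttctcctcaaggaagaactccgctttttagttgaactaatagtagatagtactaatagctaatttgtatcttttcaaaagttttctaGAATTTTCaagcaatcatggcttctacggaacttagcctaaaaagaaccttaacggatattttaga

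Fewer subunit genes than genes at large were past a given fold between libraries. Counts were scaled by TMM factors for this comparison. Of the 33 subunits, 0 were past 2-fold between replicates 1 and 2, where 12.5% of the 5299 genes tested were. The count was also 0 between replicates 1 and 3, against 11.2%, and between replicates 2 and 3, against 18.2%. In any pair of libraries 26.4% of all genes were past 2-fold, and 8.30% of the 1988 other genes in the subunits' range of CPM. The median fold of the subunits was 1.15 between replicates 1 and 2, 1.23 between 1 and 3 and 1.22 between 2 and 3, against 1.21, 1.19 and 1.26 for genes in the same CPM range, so that between replicates 1 and 3 the subunits differed more. Several subunits came close to 2-fold, with SEM1 at 1.96-fold between replicates 2 and 3 and PRE3 at 1.86-fold between replicates 1 and 3.

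At 1.5-fold, 8 subunits differed in some pair of libraries. They were PRE8, PRE5, PRE3, PUP1, RPN2, RPN6, RPN12 and SEM1, or 24.2% of the subunits, against 54.2% of all genes and 35.7% of those in the same CPM range. Spread between libraries in excess of counting error was also taken from edgeR as a biological coefficient of variation (BCV), and its median was 0.199 over the subunits. It was 0.279 over all genes tested and 0.214 over the other genes in the CPM range. These estimates are drawn towards genes of like abundance by edgeR. RPN4 had a BCV of 0.191.

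Most subunit genes were lowest in replicate 3. Relative to the mean of the other libraries, their median deviation was 0.09 in replicate 1, 0.11 in replicate 2 and -0.23 in replicate 3 on the log2 scale, while the medians of all genes tested were 0.02, 0.00 and 0.02. In replicate 3, 6 of 33 subunits lay above 0, against 51.5% of all genes. Of the 33, 23 (69.7%) had their lowest value there, against 34.6% of the 5299 genes tested. The core had a median deviation of -0.37 in replicate 3, with PRE2 alone of its 14 genes above 0. The base median was -0.19 and the lid median -0.13. RPN12 went the other way, at 0.62 in replicate 3 and -0.65 in replicate 2.

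RPN4 was also lowest in replicate 3, with deviations of 0.20, 0.09 and -0.28 in replicates 1, 2 and 3. Its highest deviation was in replicate 1, while the median deviation of the subunits was slightly higher in replicate 2 than in replicate 1. Which library was highest for RPN4 rests on the scaling of the libraries. In TPM, RPN4 stood at 159 in replicate 1 and 161 in replicate 2, and the subunit median at 202 and 217. The log2 ratio of RPN4 to the subunit median within a library, in which that scaling cancels, was -0.34, -0.43 and -0.31 in replicates 1, 2 and 3. Genes of cytosolic ribosomal proteins, 137 of them, had median deviations of 0.33, -0.57 and 0.25, so that their low library was replicate 2. Replicate 3 was the shallowest library and replicate 1 the deepest, and the part of depth in these shifts was not tested. Since each library is set against the other libraries, a low value in replicate 3 by itself raises the values in replicates 1 and 2.

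**Figure D4:**
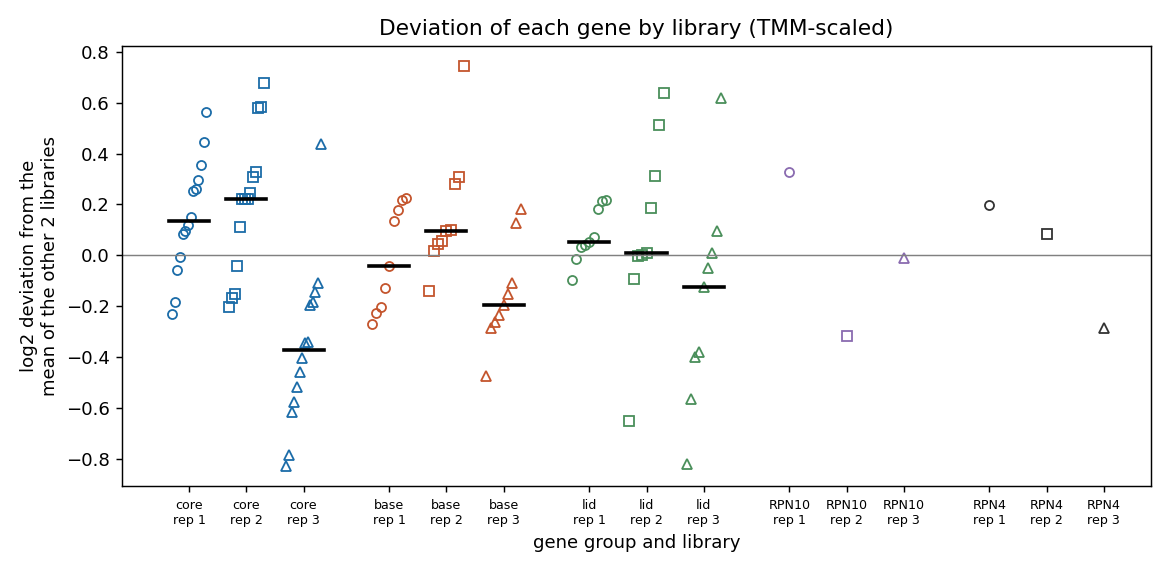
Log2 deviation of each gene in each BY4741 library from the mean of the other libraries, after TMM scaling, for core, base and lid genes, RPN10 and RPN4, with the group median as a black bar. In replicate 3, 1 of 14 core genes lies above 0, with the core median at -0.37, and RPN4 lies at -0.28.

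Genes that assemble the proteasome, except for UMP1, had means below that of each subunit. The gap to the lowest subunit was small, with IRC25 at 67.2 TPM and RPN7 at 67.3 TPM. In single libraries the lists overlapped, with IRC25 at 109 TPM and RPN7 at 71.8 TPM in replicate 3. The 9 genes of assembly chaperones had a median of 58.3, 53.1 and 52.1 TPM in replicates 1, 2 and 3. Their mean over the libraries was 0.279 times the subunit median. UMP1, whose product is built into the maturing core and degraded there, stood at 436, 510.2 and 406 TPM, or 451 ± 53.5 TPM (SD, n = 3), within the range of the highest core genes. POC4, a chaperone gene of the alpha ring, was the lowest at 19.7 ± 8.57 TPM (SD, n = 3). An exact PACE match was found in 0 of the 9 promoters.

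Proteasome-associated factors ranged widely. DSK2, a shuttle that brings ubiquitinated proteins to the proteasome, stood at 517, 609.8 and 504 TPM, or 544 ± 57.5 TPM (SD, n = 3), and the shuttle gene RAD23 at 327 ± 65.6 TPM. SPG5, a regulator of the proteasome known from stationary phase, stood at 239.8 ± 29.99 TPM, and UBP6, the second deubiquitinase of the particle, at 95.4 ± 24.1 TPM. BLM10, an alternative cap of the core, stood at 30.6 ± 2.05 TPM, and ECM29, which links core and regulatory particle, was the lowest of the 8 at 4.25 ± 2.02 TPM (SD, n = 3 for each of these). ECM29 was the 1 gene of this list with an exact PACE match.

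The genes that encode ubiquitin lay above the median subunit in each library. RPS31, which encodes ubiquitin fused to a ribosomal protein, stood at 3824, 2584 and 4011 TPM, or 3473 ± 776 TPM (SD, n = 3). UBI4, the polyubiquitin gene induced by stress, stood at 403, 560.5 and 419 TPM, or 461 ± 86.8 TPM (SD, n = 3), and its count is uncertain because its ubiquitin repeats resemble each other. RPL40A and RPL40B, near copies of each other, stood at 934 ± 116 TPM and 539 ± 207 TPM (SD, n = 3 each), with 14.2% of their 50-base stretches shared with another gene. In replicate 2, RPL40B stood at 322 TPM, below the highest subunit there, and UBI4 stood above all subunits. UBA1, the ubiquitin-activating enzyme gene, was the lowest of the 5 at 96.8 ± 6.22 TPM (SD, n = 3). UBI4 and UBA1 had an exact PACE match.

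CDC48, the segregase that delivers substrates, stood at 312, 448 and 298 TPM, or 353 ± 82.9 TPM (SD, n = 3), and had an exact PACE match. Its cofactor genes NPL4 and UFD1 stood at 59.8 ± 4.98 TPM and 62.8 ± 37.5 TPM (SD, n = 3 each). Of the genes that turn Rpn4 over, UBR2 and MUB1 lay below the median of all genes in each library and RAD6 above it in replicates 1 and 2 only, with UBR2 at 6.26 ± 1.7 TPM, MUB1 at 29 ± 2.22 TPM and RAD6 at 80.8 ± 44.1 TPM (SD, n = 3 each). Of the factors known to act on RPN4, YAP1 was the highest at 108 ± 15 TPM, and it had an exact PACE match. HSF1, PDR1 and PDR3 stood at 95.9 ± 24.3 TPM, 26.1 ± 7.43 TPM and 13.7 ± 7.65 TPM (SD, n = 3 for each of the 4).

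**Figure D5:**
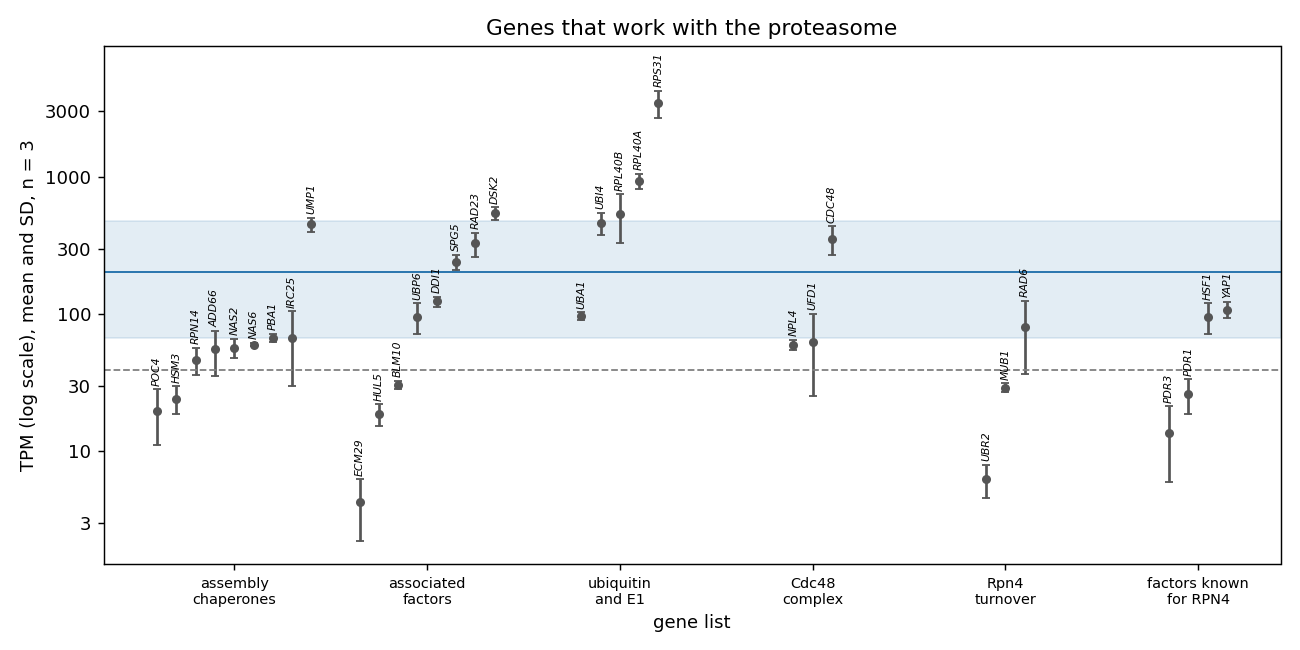
Mean TPM on a log axis, with the SD over 3 BY4741 libraries, of genes that work with the proteasome, by list. The blue band spans the means of the 33 subunits, from 67.3 to 477 TPM, with their median of 201 TPM as a line, and the dashed line is the mean over libraries of the median of all genes. RPS31, RPL40A, DSK2 and RPL40B lie above the band, and ECM29 and UBR2 lie lowest.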

How the data were processed

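The authors deposited 1 table of read counts a library, whole numbers that were not normalized. The submitters' processing notes name TopHat, HTSeq, FastQC and DESeq2 without a version. Build, annotation and strandedness were not given in the sources used here. Antisense reads can therefore not be told apart from those of the gene, and overlap with the 674 features that matched no reference gene was not checked.

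Groups came from the strain labels and 3 BY4741 libraries were used. Levels are TPM over 5898 genes matched by systematic name to RefSeq R64, which also gave symbols, coding lengths and promoters, read at that assembly's own coordinates. TMM factors, filterByExpr and tagwise BCV came from edgeR 4.0.16 in R 4.3.3, with an offset of 0.5 reads for log2 values. DESeq2 1.42.0 was an alternative, and Python 3.11.15 the other tool. The deviation and BCV steps were tested on simulated data. Limits on a count of 0 used 3 reads.

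The members and gene lists were chosen with earlier results of these data known. All members could be named. Values in every library were given for RPN4, the ends of each subcomplex, catalytic subunits, RPN11, ubiquitin receptors, the shortest gene and the ends of variation, and PRE5, PRE9, RPT4, RPT5 and RPN12 were added after their values were seen. From other lists the highest and lowest were named by rule and the rest after their values were seen. Promoter sites were printed in place of whole windows, except for RPN4, whose whole window was printed.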

Additional observations from a re-analysis of the deposited data

How the results depend on the processing

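The mean of 2 results changed sign with the scaling for length. In reads not scaled for length, core minus base was -0.27 and RPN4 minus the subunit median 0.27 on the log2 scale, and relative to genes of like coding length, added after seeing the data, they were -0.14 ± 0.23 and 0.22 ± 0.14 (SD, n = 3 each), with core minus base above 0 in replicate 2 at 0.12. By these scalings core minus lid was 0.66 and 0.76 and base minus lid 0.93 and 0.90. With means in place of medians, core minus base was 0.68 and base minus lid 0.30, and with 200 bases taken off each length core minus base was 0.77. Without SEM1, core minus lid was 1.23 and base minus lid 0.67, and with RPN10 in the lid base minus lid was 0.33. The median BCV of the subunits was 0.137 by DESeq2's gene-wise dispersion, and 0.161 to 0.236 without 1 replicate. The count of subunits past the fold was 8 at 1.5-fold and 0 at 2-fold under each scaling tried. The other alternatives, 43 of 61, moved their result by less than a set limit. For levels and shares the limit was the SD between replicates, and for deviations the SD of the library medians. For BCV it was the SD over the subunits, and for a count 1.5 times. No paired analysis was possible because the strains share no feature names, so no test between them was run. With 3 libraries, no sign-flip p below 0.25 can be reached.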
